A study of Homo sapiens with 7 samples.

Results

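The zinc finger genes described here are the 246 protein-coding genes of chromosome 19 in the RefSeq annotation of GRCh38.p14 (hg38) whose symbol is ZNF, digits and at most 1 letter. They were chosen by symbol and position alone, from 1451 protein-coding genes of chromosome 19 and 19974 on chromosomes 1 to 22 and X. The rule takes no account of a KRAB domain, so a few members without one are included, and genes named ZFP, ZSCAN or ZIM are not. The other 1205 protein-coding genes of chromosome 19 are the comparison set.

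The study concerned the transcription factor RUNX2, whose Runt domain binds DNA and which is known above all from bone formation, in acute leukemia of the T-cell lineage (T-ALL). Chromatin immunoprecipitation and sequencing was done in 2 T-ALL cell lines: KARPAS-45, which carries a KMT2A rearrangement and was grown with 20% serum, and PER-117, grown with 10% serum. Each line gave 1 library with an antibody to RUNX2 and 1 with an antibody to H3K27ac, the histone acetylation found at active promoters and enhancers, and the 3 input libraries were not analysed here. No knockdown or drug separates the libraries, so the comparison is between 2 untreated lines. The KMT2A rearrangement named for KARPAS-45 and the serum percentage go with the line and cannot be told apart from it.

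Most zinc finger genes of chromosome 19 encode proteins that pair a KRAB domain with a string of C2H2 fingers. The fingers read DNA, often the sequence of a transposable element, and the KRAB domain recruits TRIM28 (KAP1), which brings the histone methyltransferase SETDB1 and heterochromatin protein 1 to silence the site. The genes arose by repeated tandem duplication and therefore stand in clusters, with a promoter at one end and the exon that encodes the fingers at the other.

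The promoter windows below are shown because they carry the contrasts among the members. ZNF181 and ZNF302 had strong RUNX2 peaks over the start in both lines, ZNF443 and ZNF91 had peaks with Runt letters beside the start, ZNF83 had a strong peak with none of those letters, and ZNF808 was acetylated in both lines with no RUNX2 peak. Each runs from 250 bases before to 49 bases after an annotated start, which is position 0, and is written 5′ to 3′ on the strand of the gene. The sequences come from RefSeq (GRCh38.p14). Capitals mark TGTGGT or TGTGGC, the core letters bound by Runt domains, searched on both strands.
ZNF181, chr19:34733993-34734292, plus strand: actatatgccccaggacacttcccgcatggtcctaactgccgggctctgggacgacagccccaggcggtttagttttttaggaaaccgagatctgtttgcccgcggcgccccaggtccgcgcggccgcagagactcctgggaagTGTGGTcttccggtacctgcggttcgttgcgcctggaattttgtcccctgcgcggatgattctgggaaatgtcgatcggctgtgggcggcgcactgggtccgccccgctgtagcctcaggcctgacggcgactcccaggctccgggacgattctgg
ZNF302, chr19:34677428-34677727, plus strand: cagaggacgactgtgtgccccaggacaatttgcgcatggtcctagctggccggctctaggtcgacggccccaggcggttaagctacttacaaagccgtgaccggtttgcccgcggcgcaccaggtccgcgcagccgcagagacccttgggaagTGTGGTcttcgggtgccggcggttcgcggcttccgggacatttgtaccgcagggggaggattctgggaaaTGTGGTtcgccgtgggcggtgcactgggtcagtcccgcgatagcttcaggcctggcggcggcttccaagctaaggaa
ZNF443, chr19:12440972-12441271, minus strand: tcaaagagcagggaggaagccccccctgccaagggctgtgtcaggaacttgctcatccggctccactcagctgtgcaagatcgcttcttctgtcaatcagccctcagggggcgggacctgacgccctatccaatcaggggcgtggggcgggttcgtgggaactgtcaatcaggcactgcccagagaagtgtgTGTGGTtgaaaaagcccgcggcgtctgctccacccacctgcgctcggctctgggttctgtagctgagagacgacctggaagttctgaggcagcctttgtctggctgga
ZNF91, chr19:23395422-23395721, minus strand: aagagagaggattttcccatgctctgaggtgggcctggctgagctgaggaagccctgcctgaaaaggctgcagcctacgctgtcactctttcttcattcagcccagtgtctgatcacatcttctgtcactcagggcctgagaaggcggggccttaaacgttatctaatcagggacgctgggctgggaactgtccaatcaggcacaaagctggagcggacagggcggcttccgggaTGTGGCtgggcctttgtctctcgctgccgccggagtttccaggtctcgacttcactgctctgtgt
ZNF83, chr19:52690447-52690746, minus strand: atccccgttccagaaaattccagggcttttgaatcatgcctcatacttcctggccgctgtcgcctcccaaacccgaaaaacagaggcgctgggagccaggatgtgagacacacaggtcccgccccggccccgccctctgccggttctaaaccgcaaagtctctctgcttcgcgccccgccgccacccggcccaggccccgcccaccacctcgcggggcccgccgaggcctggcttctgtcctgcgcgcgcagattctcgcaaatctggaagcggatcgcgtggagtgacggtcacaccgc
ZNF808, chr19:52527418-52527717, plus strand: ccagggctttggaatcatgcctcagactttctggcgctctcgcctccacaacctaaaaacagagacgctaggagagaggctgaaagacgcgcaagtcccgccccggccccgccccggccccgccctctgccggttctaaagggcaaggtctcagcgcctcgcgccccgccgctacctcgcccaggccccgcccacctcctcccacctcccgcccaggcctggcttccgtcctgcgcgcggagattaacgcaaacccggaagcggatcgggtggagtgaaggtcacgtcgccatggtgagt
With a shift of 9 bases, ZNF181 and ZNF302 had the same letter at 218 of 291 positions (74.9%), and ZNF83 and ZNF808 at 182 of 290 (62.8%) with a shift of 10. The other 13 pairs reached at most 37.2% at their best shift. ZNF302 and ZNF83 were added to the windows after their values were seen.

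The RUNX2 list of KARPAS-45 held 42911 peaks, versus 21027 in PER-117, of which 1852 and 1226 lay on chromosome 19. The H3K27ac lists held 63265 and 53263 regions, with 3048 and 3062 on chromosome 19. Read depth is unknown, so a gene without a peak was not called at an unknown depth, and the longer KARPAS-45 lists cannot be told apart from a difference in depth or antibody. The H3K27ac lists also end at different stringency, with a lowest −log10 q of 0.431 in KARPAS-45 cells and 1.01 in PER-117. No library has a replicate, since each antibody was used once in each line, so there is no replicate error and no test between lines or gene sets. The 95% ranges in brackets follow Wilson's method, allow for counting error alone, and ignore that neighbouring genes can share a peak. Of 10 T-lineage marker genes, 10 in KARPAS-45 cells and 8 in PER-117 had gene-end H3K27ac, against 3 and 3 of 6 B-lineage, 0 and 1 of 6 myeloid, and 1 and 1 of 4 erythroid markers.

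RUNX2 peaks stood at the ends of many of these genes in both lines. A gene is called bound or acetylated at an end when a peak comes within 1 kb of the first or last base of its span. In KARPAS-45, 139 of 246 zinc finger genes were bound (56.5%, 50.3 to 62.6), compared with 607 of the 1205 other genes of chromosome 19 (50.4%) and 48.3% of all protein-coding genes. In PER-117, 100 were bound (40.7%, 34.7 to 46.9), beside 484 other genes (40.2%) and 32.5% of all genes. These shares stand near those of the rest of the chromosome, and the order was not stable. Among the 5000 strongest RUNX2 peaks of each list, 16 zinc finger genes (6.50%) and 99 others (8.22%) were bound in KARPAS-45, and 14 (5.69%) and 113 (9.38%) in PER-117.

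Acetylation was more frequent. H3K27ac lay at an end of 191 zinc finger genes in KARPAS-45 (77.6%, 72.0 to 82.4), against 762 other genes (63.2%) and 61.0% of all genes. In PER-117 it lay at an end of 162 (65.9%, 59.7 to 71.5), against 734 others (60.9%) and 55.5% of all genes. The zinc finger genes were ahead of the other genes in 7 of 8 settings in KARPAS-45 and in 7 of 7 in PER-117. The exception kept only the widest KARPAS-45 regions, up to the length covered in PER-117, and left 15 zinc finger genes acetylated (6.10%) against 268 others (22.2%). The lead was not found at every gene length. For genes under 15 kb the PER-117 shares were 74.6% of members and 56.4% of other genes. They were 66.7% and 67.0% at 15 to 30 kb, and 58.2% and 67.2% for longer genes. In KARPAS-45 they were 83.1% and 60.3%, 82.4% and 64.8%, and 67.1% and 70.1%, in the same order.

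Between the lines, 90 members were bound at an end in both (36.6%, beside 36.0% of other genes and 29.2% of all genes). Another 49 were bound in KARPAS-45 alone (19.9%, beside 14.4% and 19.2%) and 10 in PER-117 alone (4.07%, beside 4.15% and 3.35%). The other 97 were bound in neither (39.4%, beside 45.5% and 48.3%). For H3K27ac, 158 members were acetylated in both lines (64.2%, beside 56.1% and 51.9%), 33 in KARPAS-45 alone (13.4%, beside 7.14% and 9.18%) and 4 in PER-117 alone (1.63%, beside 4.81% and 3.63%). This order depended on the threshold. With an H3K27ac −log10 q of 2 or more in both lists, 155 members were acetylated in KARPAS-45 cells and 159 in PER-117, of which 24 and 28 in that line alone. With the calls as deposited, all 4 calls were present at 89 members, beside 416 of the 1205 other genes and 5646 of all 19974. No call was present at 51 members, and the matching share of other genes is not given here. H3K27ac was called at an end in neither line at 20.7% of members, 32.0% of other genes and 35.3% of all genes. The map of calls along the chromosome shows how the called and uncalled genes alternate.

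**Figure D1:**
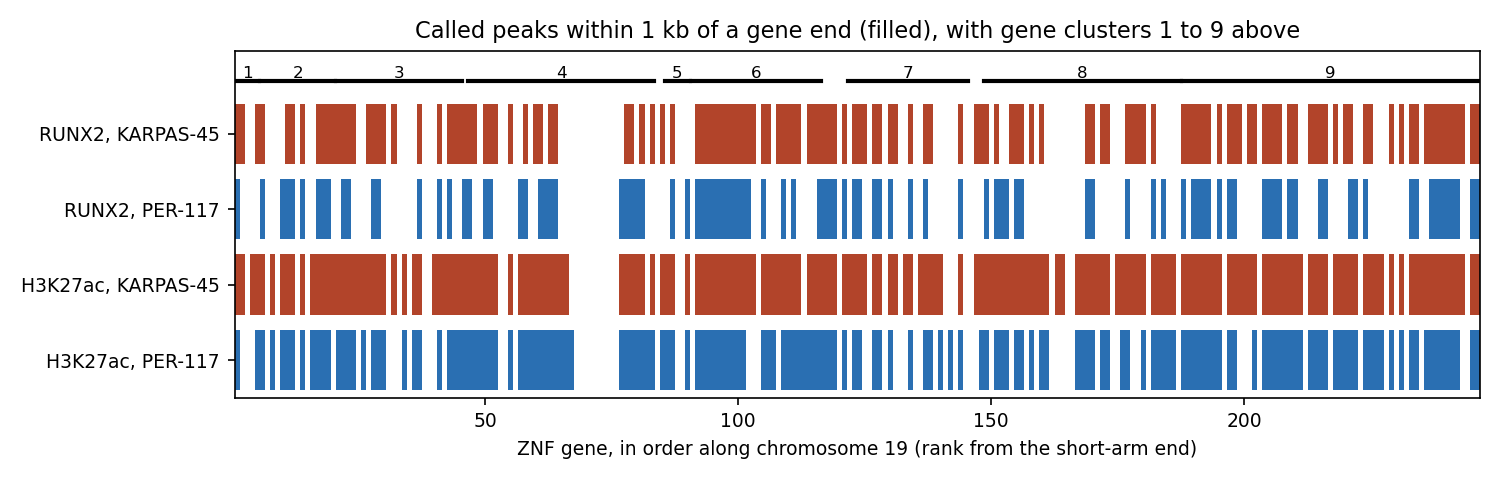
Each column is 1 of the 246 ZNF genes of chromosome 19 in chromosome order, and a filled bar marks a called peak within 1 kb of a gene end for the mark and line named at the left. Black lines above mark the 9 gene clusters; 89 genes are filled in all 4 lanes, 51 in none, and a run of 9 empty genes stands in cluster 4.

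The window of the span and its 10 kb flanks was counted next. In KARPAS-45, 195 members held a RUNX2 peak in the span or its 10 kb flanks (79.3%), beside 911 other genes (75.6%) and 72.2% of all genes. In PER-117 the count was 145 (58.9%), beside 786 (65.2%) and 54.9%. H3K27ac lay in this wider window of 225 members in KARPAS-45 (91.5%), beside 944 others (78.3%) and 74.0% of all genes. In PER-117 it lay there in 199 (80.9%), beside 901 (74.8%) and 69.4%. For RUNX2 the order of members and other genes depended on the setting. Without flanks, members led in KARPAS-45 (65.9% against 55.4%) and PER-117 (44.7% against 41.3%), and with a RUNX2 −log10 q of 10 or more they trailed in both (56.5% against 59.7%, and 34.6% against 46.3%). In this window 19 members had neither mark in either line, and the matching share of other genes is not given here. No RUNX2 peak lay there in either line at 41 members. Those 41 are 16.7% of members, beside 21.2% of other genes and 24.7% of all genes. H3K27ac was called there in neither line at 8.13% of members, 17.6% of other genes and 21.6% of all genes.

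Per length, the zinc finger genes carried less of either mark than their neighbours on the chromosome. Their spans and flanks together cover 10.4 Mb and held 2.86 RUNX2 peaks per 100 kb in KARPAS-45 cells and 1.57 in PER-117. The spans and flanks of the other genes cover 34.1 Mb, with 4.32 and 3.05 peaks per 100 kb. H3K27ac regions covered 9.20% of the zinc finger territory in KARPAS-45 cells and 3.27% in PER-117, against 20.3% and 11.0% of the other territory. A member spanned 23.2 kb at the median and another gene of the chromosome 12.8 kb. The share by gene length ran differently in the sets. In PER-117, RUNX2 was found in the span plus 10 kb of 67.8% of members under 15 kb long, 56.5% of those of 15 to 30 kb and 55.7% of longer ones. Among other genes of the chromosome the shares were 60.3%, 71.5% and 72.6%. In KARPAS-45 they were 84.7%, 82.4% and 70.9% of members, against 70.2%, 79.4% and 87.1% of other genes.

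The calls stood mostly at the starts of the genes. RefSeq start sites were at hand for 216 members, and for 214 the far end of the span lay apart from every start. In KARPAS-45, RUNX2 lay within 1 kb of a start of 135 of these 214 genes (63.1%, 56.4 to 69.3) and at the far end of 7 (3.27%, 1.59 to 6.60). Among 897 other genes of the chromosome the shares were 51.3% at the start and 12.9% at the far end, and among all 14802 genes 52.4% and 6.62%. In PER-117, RUNX2 lay at the start of 107 of the 214 (43.4 to 56.6) and the far end of 2 (0.935%), against 39.2% and 9.70% of the others. Over all genes the PER-117 shares were 35.6% and 3.72%.

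H3K27ac followed the same layout. In KARPAS-45 it lay at the start of 183 members (85.5%) and the far end of 14 (6.54%), against 62.7% and 34.2% of other genes. In PER-117 it lay at the start of 161 (75.2%) and the far end of 9 (4.21%), against 60.1% and 28.8%. Over all genes the shares were 63.6% and 22.6% in KARPAS-45 cells, and 58.9% and 15.1% in PER-117. Of the members' acetylated far ends, 3 of the 14 in KARPAS-45 cells and 3 of the 9 in PER-117 had another annotated start within 1 kb. For RUNX2 this held for 2 of the 7 and 1 of the 2. The 2 genes with a far-end RUNX2 peak in PER-117 were ZNF829 with a fold of 4.06 and ZNF324 with a fold of 6.87, both named after their values were seen.

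**Figure D2:**
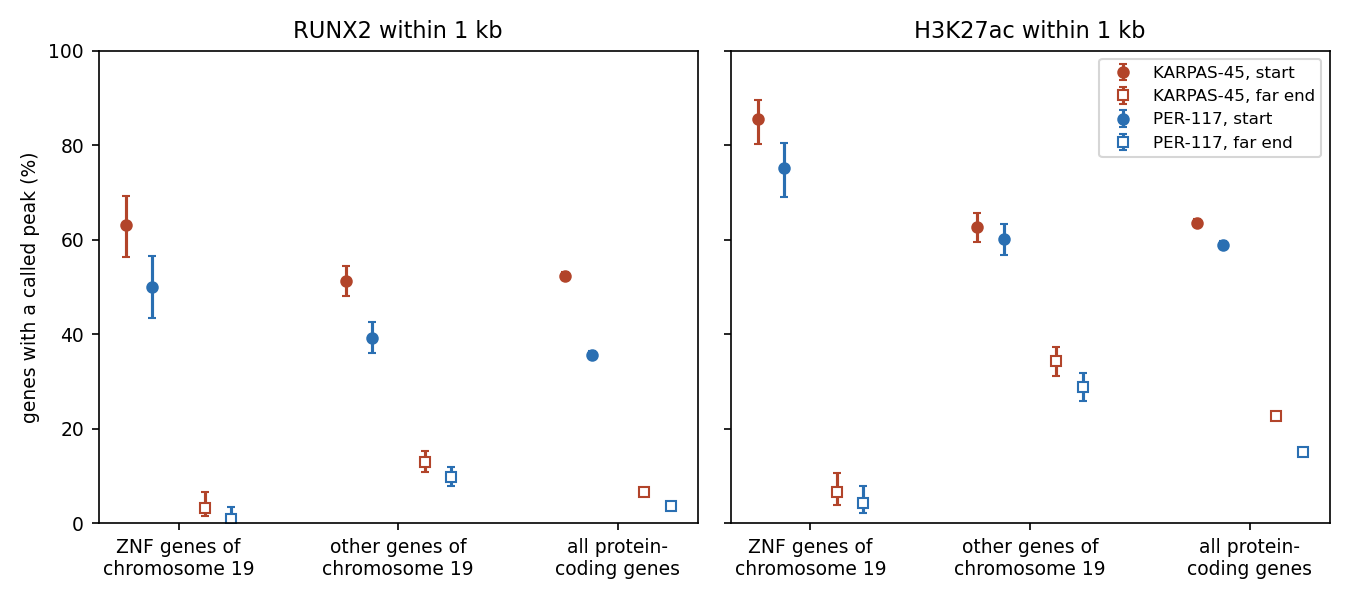
Share of genes (%) with a RUNX2 peak (left) or H3K27ac region (right) within 1 kb of an annotated start (filled circles) or of the far end of the span (open squares), by line, for 214 ZNF genes, 897 other genes of chromosome 19 and 14802 genes in all. Bars are Wilson 95% intervals; ZNF genes reach 63.1% for RUNX2 at starts and 3.27% at far ends in KARPAS-45.

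The acetylated regions over the starts were narrow. They had a median width of 2216 bp in KARPAS-45 and 1301 bp in PER-117 over the members' starts, against 3446.5 and 1808 bp over those of the other genes. Regions wider than 5 kb made up 16 of 185 in KARPAS-45 cells (8.65%) and 1 of 163 in PER-117 (0.613%), against 36.3% and 8.56% of those over other starts. Over the starts of all genes the median widths were 2803 and 1762.5 bp, and 27.9% and 5.92% of regions were wider than 5 kb.

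RUNX2 summits stood close to the starts. Of 167 summits within 2 kb of a member's start in KARPAS-45, 112 lay within 250 bp (67.1%), against 57.4% of 631 around other starts. In PER-117 it was 83 of 116 (71.6%), against 48.5% of 472. The median position was -31 bp in KARPAS-45 and 16 bp in PER-117, against -66 and -68 bp for other genes.

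**Figure D3:**
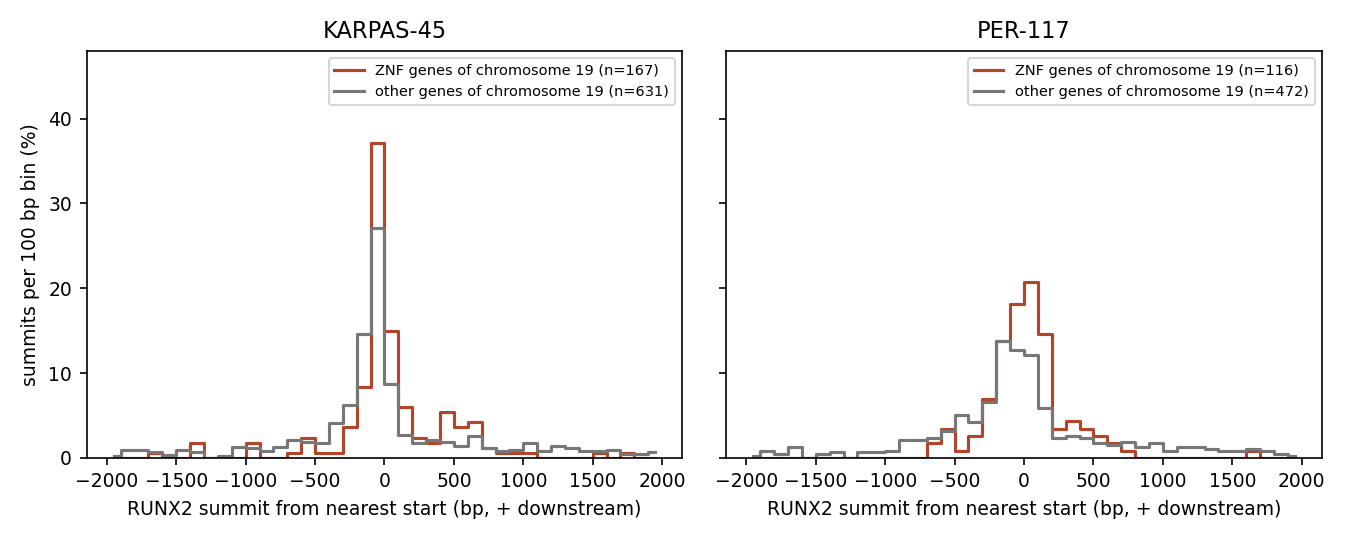
Distance of RUNX2 summits from the nearest annotated start, in 100 bp bins within 2 kb, as a share of the summits of each gene set (%), with ZNF genes in red and other genes of chromosome 19 in grey. Of the ZNF summits, 67.1% in KARPAS-45 cells and 71.6% in PER-117 lie within 250 bp of the start, against 57.4% and 48.5% of the others.

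Counted by peak, the spans and flanks of the members held 296 RUNX2 peaks in KARPAS-45 cells and 163 in PER-117. Of these, 166 and 106 touched a gene end, 26 and 21 an annotated start inside the span, 32 and 7 lay elsewhere inside, and 72 and 29 lay in the flanks. The other genes of the chromosome had 527 of their 1473 peaks elsewhere inside the span in KARPAS-45 cells (35.8%) and 352 of 1038 in PER-117 (33.9%), against 10.8% and 4.29% for the zinc finger genes. Of the 166 gene-end peaks in KARPAS-45, 94 overlapped a PER-117 peak (56.6%), beside 54.8% for other genes of the chromosome and 47.9% for all genes. Of the 106 in PER-117, 90 overlapped a KARPAS-45 peak (84.9%), beside 76.4% and 78.9%. The summit was covered by the same line's H3K27ac for 161 of the 166 (97.0%) and 102 of the 106 (96.2%), against 92.5% and 88.8% at other genes. Few of these peaks served several genes: 8 of the 166 and 5 of the 106 touched ends of more than 1 member, and 13 and 8 also touched another gene.

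RUNX2 at a gene end came with H3K27ac at an end of the same gene. In KARPAS-45 all 139 bound members were acetylated (95% lower bound 97.3%), as were 579 of 607 bound other genes (95.4%). In PER-117 it was 99 of 100 bound members and 465 of 484 others (96.1%). The exception was ZNF829, where the PER-117 peak lay at the far end. With only H3K27ac regions of −log10 q of 2 or more, 112 of the 139 remained acetylated in KARPAS-45 (80.6%) and 99 of the 100 in PER-117. Read the other way, RUNX2 lay at an end of 139 of 191 acetylated members in KARPAS-45 cells (72.8%) and 99 of 162 in PER-117 (61.1%), against 76.0% and 63.4% of acetylated other genes. Without acetylation, RUNX2 was at 0 of 55 and 1 of 84 members, against 6.32% and 4.03% of other genes and 5.42% and 1.80% of all genes.

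Genes bound in one line alone were mostly acetylated in the other line as well. The 10 members bound in PER-117 alone were acetylated in KARPAS-45 in 10 of 10 cases, beside 78.0% of such other genes and 71.8% of such genes overall. The 49 bound in KARPAS-45 alone were acetylated in PER-117 in 34 cases (69.4%), near the 75.7% and 73.7% of such genes in those sets.

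Each fold enrichment is the value the authors gave a peak, and serves to order the peaks of its own list. The strongest gene-end peak of a bound member had a median fold of 6.84 in KARPAS-45 cells and 5.57 in PER-117, which put the median at the top 45.1% and 51.8% of the lists. Among the distinct gene-end peaks, 13 of 166 in KARPAS-45 cells (7.83%) and 4 of 106 in PER-117 (3.77%) belonged to the top 10% of their list, against 8.98% and 7.44% of the peaks at other genes. Members bound in both lines had a median of 7.86 in KARPAS-45, against 4.86 for those bound there alone. In PER-117 the medians were 5.93 and 4.22. Over the 90 members bound in both lines the folds had a Spearman rho of 0.442, a description in which some neighbours share 1 peak.

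**Figure D4:**
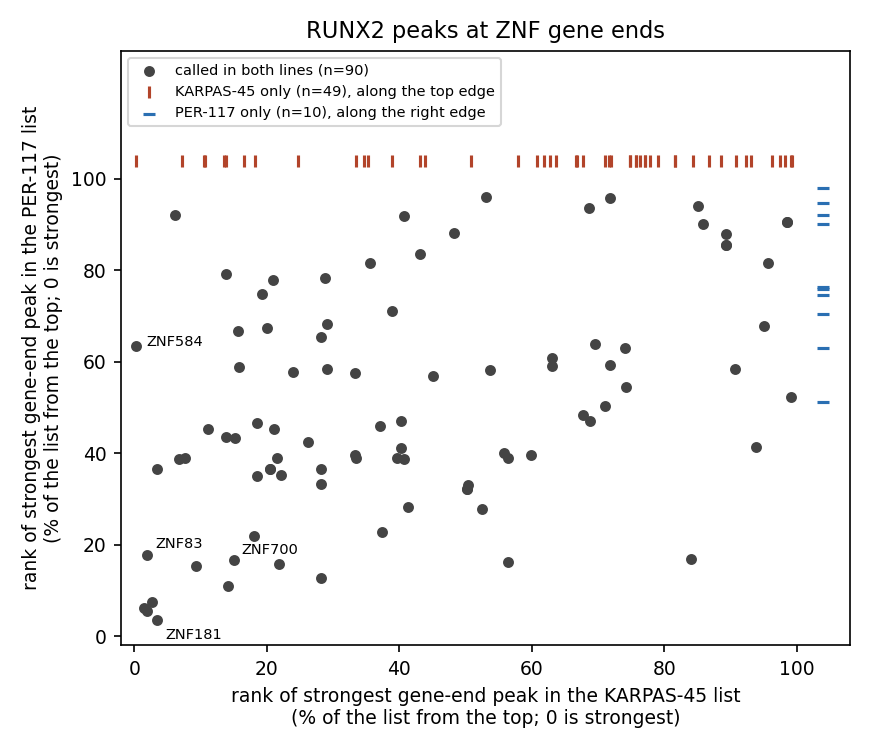
Position of the strongest gene-end RUNX2 peak of each bound ZNF gene within its own list, as a percentage from the top, with KARPAS-45 on the horizontal and PER-117 on the vertical axis. Points are the 90 genes called in both lines, ticks along the top the 49 called in KARPAS-45 only and ticks along the right edge the 10 called in PER-117 only, of which none stands in the upper 50% of its list.

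The genes bound in both lines with the best ranks were ZNF561, ZNF101, ZNF181, ZNF627, ZNF83, ZNF837, ZNF559, ZNF700, ZNF230 and ZNF443. Little is established about the targets of most of them. ZNF561, a gene at chr19:9607329-9621232, had a peak of fold 33.1 in KARPAS-45 and one of 16.6 in PER-117. ZNF101, a gene at chr19:19668153-19683506, had 35.9 in KARPAS-45 cells and 16.1 in PER-117. ZNF627, at chr19:11597483-11619161, had 29.2 and 14.9. All 10 were acetylated at an end in both lines, and these first 4 genes by rank stood in the top 3.38% of the KARPAS-45 list and the top 7.46% of the PER-117 list.

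ZNF181, whose promoter is shown above, had the strongest gene-end peak of any member in PER-117. Its peak had a fold of 27.02 in KARPAS-45 cells and 19.4 in PER-117, with summits at -105 and -86 bp from the start. The single TGTGGT of its window begins at -106 bp. ZNF302 lies in the same cluster and its span starts upstream of its annotated start, so its peak counts as internal and the gene is not among those bound at an end. That peak had a fold of 45.3 in KARPAS-45 cells and 19.1 in PER-117 with summits at -64 and -77 bp, in a window with 2 copies of TGTGGT of which the first begins at -97 bp.

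ZNF443 had a fold of 12.4 in KARPAS-45 cells and 9.09 in PER-117. Its TGTGGT begins at -58 bp, and the summits lay at -52 and -1 bp. ZNF83 had 32.9 and 10.1 with summits at -86 and -171 bp, and ZNF230 had 27.1 and 6.88 with summits at -12 and -1 bp. Neither letter group occurs in the windows of ZNF83 or ZNF230, which says nothing of the factor itself.

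The core letters were also counted in all start windows. The members' windows belong to 216 genes, so a gene can have several, and the ranges for windows treat them as independent. Either core was found in 84 of 268 start windows of the members (31.3%), 356 of 1280 of other chromosome 19 genes (27.8%) and 28.7% of the 35116 promoters in the table. Of the members' windows overlapped by RUNX2 peaks in both lines, 39 of 92 held a core (42.4%, 32.8 to 52.6). Of those with a peak in neither line, 27 of 110 did (24.5%, 17.5 to 33.4), and of those with a peak in KARPAS-45 alone 13 of 50 did (26.0%, 15.9 to 39.6). The intervals overlap. For the other genes the shares were 30.1% of 289 windows with a peak in both lines and 28.2% of 717 with a peak in neither. Windows of members with H3K27ac in neither line held a core in 14 of 42 cases (33.3%).

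TGTGGT alone stood in 41 of the members' windows (15.3%) and in 13.1% of all promoters. Where H3K27ac covered the window in both lines, TGTGGT was in 26 of 145 windows with a RUNX2 peak in either line and in 0 of 40 without one. The shares are 17.9% (12.5 to 24.98) and 0% (0 to 8.76). For other genes of the chromosome the counts were 37 of 514 (7.20%) and 12 of 137 (8.76%), so the split by TGTGGT did not appear there. With either core counted, a split in the same direction appeared in both sets. Members held a core in 54 of 145 windows with RUNX2 (29.8 to 45.3) and 6 of 40 without it (7.06 to 29.1). Other genes held one in 140 of 514 (27.2%, 23.6 to 31.2) and 23 of 137 (16.8%, 11.5 to 23.9), with ranges that overlap. The TGTGGT contrast was picked from several after the values were seen. CG pairs had a median of 20 in the members' windows and 21 in the others. In the windows acetylated in both lines the medians were 22 and 28 with RUNX2 and 19.5 and 23 without it.

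Of the members bound in KARPAS-45 alone, the strongest were ZNF324B, ZNF653, ZNF878, ZNF329, ZNF571, ZNF568, ZNF714 and ZNF439. ZNF324B shared its peak of fold 55.1 with the far end of ZNF584, and the annotated start of ZNF324B in the promoter table lies inside its span, away from this peak. The peak of ZNF653 (19.8) stood at the far end. ZNF878 had 16.6, ZNF329 16.5, ZNF571 14.4, ZNF568 14.3, ZNF714 12.9 and ZNF439 12.3, and none of the 8 had a gene-end peak in PER-117. ZNF324B, ZNF878, ZNF568 and ZNF439 also lacked gene-end H3K27ac in PER-117, but the inner start of ZNF324B was acetylated in PER-117.

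The members bound in PER-117 alone had their peak at a median of the top 76.1% of the list, close to the top 71.1% for those bound in KARPAS-45 alone. ZNF66 had a fold of 5.60, ZNF675 4.89, ZNF317 4.52, ZNF730 4.32, ZNF613 4.23, ZNF551 4.21, ZNF350 3.51 and ZNF792 3.41. The best of them stood at 51.2% of the list from the top. ZNF317 and ZNF792 had a KARPAS-45 peak elsewhere in the span or flanks, with folds of 7.32 and 20.8. ZNF730 had a KARPAS-45 peak of fold 3.08 at an annotated start inside the span, so a start of ZNF730 was bound in both lines.

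No member had a RUNX2 peak at an end without H3K27ac at an end in at least 1 line. The reverse occurred: 8 members were acetylated at an end in both lines with no RUNX2 peak anywhere in the span and flanks. Among them were ZNF808, ZNF429, ZNF701, ZNF100, ZNF586 and ZNF430. The matching share of other genes is not given here. At gene ends alone, 25 of the 97 members bound in neither line were acetylated in both (25.8%), beside 16.8% of such other genes and 15.1% of such genes overall. ZNF808 represses MER11 retrotransposons and its loss causes pancreatic agenesis in humans. It had 2644 acetylated bases around its ends in KARPAS-45 cells and 1417 in PER-117. Its neighbour ZNF701, whose span begins 1534 bp from that of ZNF808, had 2452 and 997.

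A gene-end H3K27ac call in PER-117 alone was found for ZNF726, ZNF43, ZNF285 and ZNF540, over 1288, 724, 657 and 413 bases around the ends. Of these, ZNF43 and ZNF540 had KARPAS-45 H3K27ac at an annotated start inside the span, ZNF726 had a KARPAS-45 region of fold 1.43 elsewhere in the span or flanks, and ZNF285 had none there. The 33 members with a gene-end H3K27ac call in KARPAS-45 alone were led by ZNF846 (3414 bases), ZNF439 (2001), ZNF528 (1982), ZNF491 (1968), ZNF555 (1949), ZNF324B (1867), ZNF836 (1864) and ZNF135 (1833). Of these 8, ZNF846 and ZNF324B had PER-117 H3K27ac at an annotated start inside the span, with folds of 9.02 and 5.71. ZNF846, ZNF439, ZNF555 and ZNF324B were bound by RUNX2 at an end in KARPAS-45.

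The members known to silence retrotransposons varied, and ZNF808, described above, had no RUNX2 peak in its span or flanks. ZNF91, which represses SVA and L1 elements and has its promoter shown above, had a fold of 6.84 in KARPAS-45 cells and 5.25 in PER-117. Its TGTGGC begins at -15 bp and the KARPAS-45 summit lay at -45 bp. ZNF93, which represses a class of L1 elements, had 8.03 and 3.96, which stood at 35.6% and 81.6% of the lists from the top. ZNF417 and ZNF587, which bind HERV-K elements, had 4.30 and 4.53 in KARPAS-45 and no gene-end peak in PER-117. ZNF274, which recruits SETDB1 to the 3′ ends of zinc finger genes, had 4.01 and 3.51, at 85.8% and 90.2% of the lists.

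Other members with a known role varied. ZNF224, a repressor of the aldolase A gene, had 13.6 in KARPAS-45 cells and 6.19 in PER-117. ZNF175, which represses the HIV promoter, had 9.35 and 4.12, and ZNF649 had 8.44 and 6.60. ZNF382, reported as a tumour suppressor, had 3.84 and 3.73 from a peak it shared with ZNF529. ZNF568, known in mouse as a repressor of a placental Igf2 transcript, had 14.3 in KARPAS-45 and no gene-end peak in PER-117. ZNF473, which acts in histone pre-mRNA processing, had 4.62 in KARPAS-45 alone. ZNF350, a partner of BRCA1, had 3.51 in PER-117 alone.

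Some members with roles outside T cells or with monoallelic expression had no mark at either end of the span. ZNF536, a regulator of neuronal differentiation, had no peak of either kind in its span or flanks in either line. ZNF541, which acts in meiosis of male germ cells, had in its flank the strongest peak counted for any member in both lines. Its fold was 82.9 in KARPAS-45 cells and 48.9 in PER-117. The peak lies in the flank beyond the far end, at chr19:47518018-47518678 in KARPAS-45, and ranked 3 and 6 in the whole lists. In KARPAS-45 its summit is 54807 bp from the ZNF541 start. The same peak also counts in the flanks of other genes of the chromosome, and NAPA lies 5627 bp from the ZNF541 span. Which gene the peak belongs to was not tested. ZNF331, an imprinted gene, had 2 peaks inside its span in KARPAS-45, with folds of 4.80 and 12.9, and none in PER-117. The weaker of these lay at -69 bp from an annotated start inside the span, and H3K27ac covered that start with a fold of 1.46 in KARPAS-45 cells and 4.30 in PER-117. The summit of the stronger lay at -972 bp from another annotated start and was not covered by H3K27ac.

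A member had a median of 1 RUNX2 peak in its span and flanks in each line, as did all protein-coding genes. The other genes of the chromosome had a median of 2 in KARPAS-45 cells and 1 in PER-117. In the span and flanks, 51 members had 0 peaks, 96 had 1, 58 had 2 and 41 had 3 or more in KARPAS-45. In PER-117, 101 had 0, 99 had 1, 32 had 2 and 14 had 3 or more. ZNF69 led in KARPAS-45 with 8, followed by ZNF541 and ZNF865 with 7, ZNF846 with 6 and ZNF555 and ZNF714 with 5. ZNF837 led in PER-117 with 5, ZNF541, ZNF581, ZNF69 and ZNF865 had 4, and ZNF253 had 3. The 92.4 kb span of ZNF69 contains that of ZNF700, whose gene-end peaks (best fold 13.7 in KARPAS-45 cells and 10.5 in PER-117) count for both genes. Strong flank peaks near ZNF681 (43.3 in KARPAS-45) and ZNF444 (24.5 in KARPAS-45 cells and 32.8 in PER-117) lay away from any end.

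The members fall into 9 clusters, defined as runs of at least 5 members with no gap over 1 Mb, that hold 235 of the 246. The cluster from ZNF565 to ZNF573 (cluster 6) had the highest share bound. There 22 of 26 members were bound in KARPAS-45 cells (84.6%, 66.5 to 93.9) and 15 in PER-117 (57.7%, 38.9 to 74.5), and 23 and 21 were acetylated. Several of its genes share 1 promoter region in pairs, such as ZNF529 with ZNF382, ZNF461 with ZNF567 and ZNF790 with ZNF345, and each pair was bound by the same peaks in both lines. The cluster was picked from the 9 for its share, so its value is a description.

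Cluster 9, from ZNF628 to ZNF446, has the most members. It had 41 of 59 bound in KARPAS-45 cells (69.5%) and 29 in PER-117 (49.2%), with 50 and 45 acetylated. Cluster 8, from ZNF175 to ZNF331, had 16 of 39 (41.0%) and 11 (28.2%) bound although 33 and 23 were acetylated. Cluster 4, from ZNF101 to ZNF254, had 15 of 37 (40.5%) and 14 (37.8%) bound with 23 and 25 acetylated. For RUNX2 in KARPAS-45 the interval of cluster 6 lay above those of its neighbours 7 and 5, the latter with 5 members. That of cluster 9 began at 56.9% and that of cluster 8 ended at 56.6%. Neighbouring genes can share a peak, so these intervals are no test, and no difference between clusters was tested. In the plot of shares by cluster, all intervals of neighbouring clusters overlap for RUNX2 in PER-117 and for H3K27ac in both lines.

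**Figure D5:**
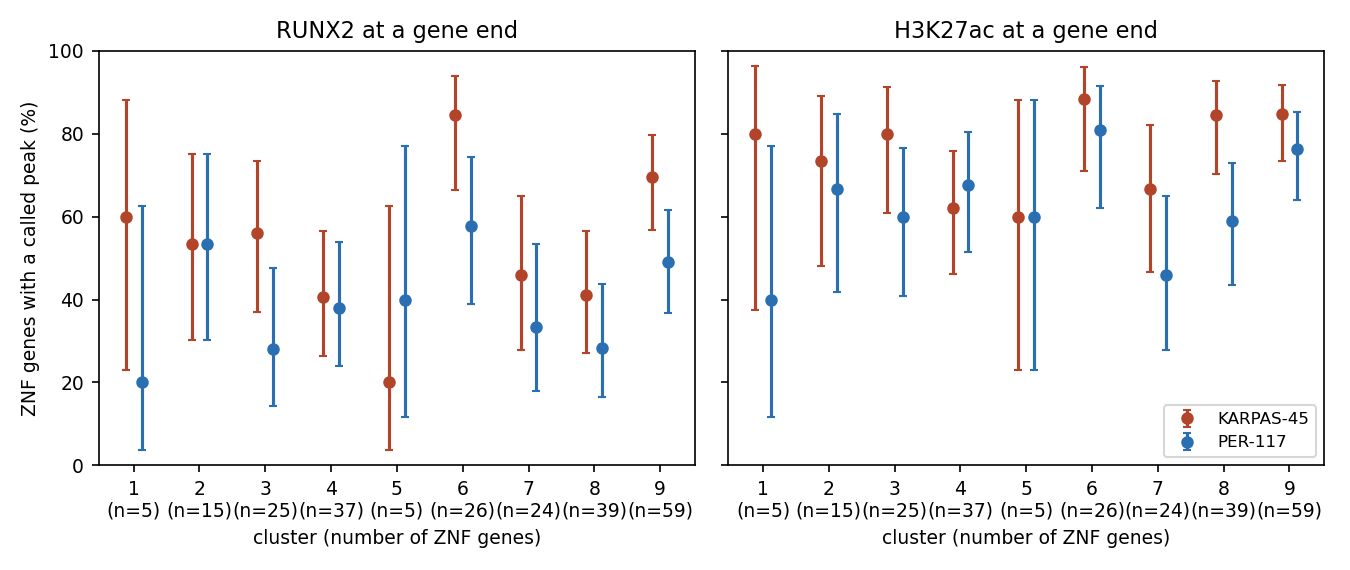
Share of ZNF genes (%) in each of the 9 clusters with a RUNX2 peak (left) or H3K27ac region (right) within 1 kb of a gene end, in KARPAS-45 (red) and PER-117 (blue), with Wilson 95% intervals. Cluster 6 has the highest RUNX2 shares, 84.6% in KARPAS-45 cells and 57.7% in PER-117, and cluster 4 is the only cluster with more acetylated genes in PER-117 (25) than in KARPAS-45 (23).

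Within cluster 4, 9 neighbouring genes from ZNF208 to ZNF728, at chr19:21939815-23003176, had no call at any end in either line. In the wider window, 1 of the 9 had a RUNX2 peak and 2 had an H3K27ac region in KARPAS-45, and none had either in PER-117. How reads that map to several places were handled across such tandem copies is not given in the sources used here.

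The other clusters were smaller or between these values. Cluster 3, from ZNF653 to ZNF791, had 14 of 25 bound in KARPAS-45 cells and 7 in PER-117. Cluster 7, from ZNF575 to ZNF296, had 11 and 8 of 24. Cluster 2, from ZNF557 to ZNF846, had 8 and 8 of 15. Clusters 1 and 5 had 5 members each, with 3 and 1 and with 1 and 2 bound. The 154 other protein-coding genes inside the clusters were bound in 36.4% of cases in KARPAS-45 cells and 26.0% in PER-117, and acetylated in 51.9% and 51.3%.

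Members with another protein-coding gene end within 1 kb had a higher share bound, with intervals that overlap. Of these 43, 30 were bound in KARPAS-45 cells (69.8%, 54.9 to 81.4) and 22 in PER-117 (51.2%, 36.8 to 65.4). Of the 203 without such a neighbour, 109 were bound in KARPAS-45 cells (53.7%, 46.8 to 60.4) and 78 in PER-117 (38.4%, 32.0 to 45.3). A close neighbour also brings its own end into the window.

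The genes through which KRAB zinc finger proteins act were mostly bound themselves. Of a list of 23 such genes, 21 were bound at an end in KARPAS-45 cells and 18 in PER-117, and 23 and 22 were acetylated. Over all genes the shares were 48.3% and 32.5% bound and 61.0% and 55.5% acetylated. Among all genes with gene-end H3K27ac, 75.7% were bound in KARPAS-45 cells and 57.1% in PER-117. TRIM28, the KRAB co-repressor encoded near the end of the long arm of chromosome 19, had 8.02 in KARPAS-45 cells and 4.88 in PER-117. SETDB1, the H3K9 methyltransferase, had 7.09 and 10.4. CBX5, which encodes heterochromatin protein 1 alpha, had 10.2 and 9.82.

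DAXX, an H3.3 chaperone, had 11.7 in KARPAS-45 cells and 14.7 in PER-117, and its partner ATRX had 6.01 in KARPAS-45 alone. ATF7IP, a stabiliser of SETDB1, had 17.5, PPHLN1, a subunit of the HUSH complex, had 4.30 and SUMO2, which modifies TRIM28, had 6.81, each in KARPAS-45 alone. SMARCAD1, a remodeler that binds TRIM28, had 6.56 in PER-117 alone. UHRF1, which guides maintenance DNA methylation, was bound at an end in neither line and acetylated at one in KARPAS-45 alone. Its span and flanks held 5 RUNX2 peaks in KARPAS-45 cells (best fold 35.3) and 2 in PER-117 (6.53). H3K27ac regions there numbered 2 in KARPAS-45 cells (best fold 4.18) and 13 in PER-117 (8.60).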

How the data were processed

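ChIP-seq peak lists of KARPAS-45 and PER-117 were used, 1 per line and antibody. STAR 2.4.2a, MACS2 and hg38 are named in the submitters' processing notes. Thresholds, the input behind each list and the handling of multiply mapped reads were not given in the sources used here. Per the file layout (narrowPeak, 10 columns), the authors deposited for each peak a display score, the fold enrichment as a linear ratio, and the −log10 of its p and q. Column 10 of the deposited RUNX2 lists is a summit offset in bases, whereas in the deposited H3K27ac lists it is always 100 and was ignored. Depth is unknown.

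RUNX2 lines of 1 interval were joined, and chromosomes 1 to 22 and X kept. Gene spans, starts and promoter sequences came from RefSeq tables of GRCh38.p14, the build hg38. Starts were at hand for 216 of the 246 members, and proteins were not used here, so KRAB domains and fingers were not searched. A peak was assigned at an overlap of 1 bp or more. Shares have Wilson 95% intervals, with no test because no group has a replicate. The members and lists were chosen with earlier results of these data known.

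The naming rule took the 10 members bound at an end in both lines with the best worse rank, up to 8 bound and up to 8 acetylated in 1 line only, up to 6 with 1 mark alone, the 6 with most peaks and the 5 with the strongest peak per line, 16 members with a known role, and a pathway list of 23 genes. Others are named only where stated or as neighbours and cluster limits. Alternatives were windows of 2.5 kb and 500 bp, annotated starts only, no flank, summits or midpoints, a −log10 q of 10 or more for RUNX2 and of 2 or more for H3K27ac, the 5000 strongest RUNX2 peaks, the wider H3K27ac regions (above the median width) and KARPAS-45 H3K27ac at the covered length of PER-117. Overlap code was tested on simulated data. The software was Python 3.11.15 with scipy 1.17.1, pandas 2.3.3, matplotlib 3.10.9 and numpy 2.4.6.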

Additional observations from a re-analysis of the deposited data

How the results depend on the processing

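No paired analysis was possible because each line and antibody has 1 library and no result comes from a test. Of 81 counts of members under an alternative, 63 stayed within 1.5 times of the count reported and 18 did not. With a RUNX2 −log10 q of 10 or more, 81 members were bound at an end in KARPAS-45, versus 51 in PER-117, 43 in both, and 85 had a peak in the span plus 10 kb in PER-117. With the 5000 strongest RUNX2 peaks, 16 and 14 were bound at an end, 6 in both and 10 in KARPAS-45 only, and 39 and 31 had a peak in the span plus 10 kb. With KARPAS-45 H3K27ac kept widest first at the covered length of PER-117, 15 members were acetylated at an end in KARPAS-45, 23 in the span plus 10 kb, 13 in both lines, 2 in KARPAS-45 only and 149 in PER-117 only. The number acetylated in PER-117 only was 17 with midpoints, 28 with an H3K27ac −log10 q of 2 or more and 8 with the wider regions. Wider-first selection removes narrow regions by construction; the cause of the other shifts was not tested. The lead of members over other genes for RUNX2 at an end ranged from -1.71 to 14.5 percentage points in KARPAS-45 and from -3.69 to 12.0 in PER-117. Members were ahead in 5 of 7 and 4 of 7 settings. Both highest values came from annotated starts only, where genes without an annotated start counted as not bound. Such starts were at hand for 216 of 246 members and 969 of 1205 other genes, so missing starts can raise these leads. Where start and far end lay apart, RUNX2 was at a start of 63.1% of 214 members and 51.3% of 897 others in KARPAS-45 cells. In PER-117 it was at a start of 107 of the 214 and 39.2% of the 897. The counts of members with both marks at an end were taken under these settings after the data were seen. Unknown depth limits every statement that a peak is missing.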
